A study of Cricetulus griseus with 24 samples.

Results

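The Slc12 genes encode the cation-chloride cotransporters, membrane proteins that move chloride together with sodium or potassium. The members Slc12a2, Slc12a4, Slc12a5, Slc12a7 and Slc12a9 were taken by name from both count tables. They were 5 of 26776 gene names in each table, and all 5 passed the filter on low counts in both experiments. RNA was sequenced from LR73 cells, a Chinese hamster line labelled as cultured fibroblasts and used as phagocytes, in 24 libraries with 4 biological replicates per group. In the second experiment the groups were Slc12a2-deficient and wildtype phagocytes. Both genotypes were given apoptotic Jurkat cells, a human T cell line, for 2 h, and cells positive for CypHer5E were then sorted. This dye lights up in acid compartments and so marks cells that have taken up a corpse. In the first experiment unsorted phagocytes received apoptotic cells with cytochalasin D, apoptotic cells alone, cytochalasin D alone, or neither (control). Cytochalasin D caps actin filaments and blocks engulfment. The corpses were Jurkat cells exposed to ultraviolet C light at 1500 mJ and cultured for 4 h. The sources used here do not give how Slc12a2 was removed, whether the deficient line is 1 clone, or how long co-culture lasted in the first experiment.

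Slc12a2 encodes NKCC1, which uses the sodium gradient to load sodium, potassium and chloride into the cell. The potassium-chloride cotransporters run the other way and let potassium and chloride leave: Slc12a4 encodes KCC1, a widely expressed member, Slc12a5 encodes KCC2, known mainly from neurons, and Slc12a7 encodes KCC4. Slc12a9 encodes the cation-chloride cotransporter-interacting protein CIP1, whose transport activity is less well settled. In human and rodent cells, WNK kinases, which sense chloride, act through the kinases SPAK (Stk39) and OSR1 (Oxsr1). Phosphorylation by these kinases activates NKCC1 and inhibits the potassium-chloride cotransporters. This regulation acts on protein, which the RNA counts do not measure.

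Library depth was 8272232 to 18911353 fragments assigned to named genes in the first experiment, and 22758587 to 28450594 in the other. Levels are CPM (counts scaled to TMM-adjusted library size) and, where genes are compared with each other, as CPM per kb of gene length. A count of 3 corresponded to 0.105 to 0.363 CPM. Control library 4, cytochalasin D library 1 and library 4 of corpses with cytochalasin D stood apart on the third principal component of the first experiment, which held 10.4% of the variance. The fibroblast marker Vim averaged 2962 to 5420 CPM per group and Fn1 654 to 1248 CPM, while the fibroblast collagens Col1a1 and Col1a2 averaged at most 0.138 CPM in any group. The T cell kinase Lck averaged 3.07 CPM in corpses with cytochalasin D and 3.20 CPM in corpses, and at most 0.0585 CPM in the other 4 groups. Summed over 7 myeloid markers, levels were 1.26 to 3.82 CPM.

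The gene models behind the counts differed between members. Slc12a2 had 27 exons summing to 5.51 kb, Slc12a5 27 exons and 3.69 kb, and Slc12a9 14 exons and 2.51 kb. Slc12a4 had 25 exons summing to 3.82 kb, and its model overlaps the exons of Lcat, a lipoprotein enzyme gene on the same strand, so fragments from the shared stretch cannot be assigned with certainty. The 23 exons of Slc12a7, summing to 4.96 kb, were split over 2 assembly scaffolds.

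Slc12a4 had the highest mean of the 5 members in each of the 6 groups. Per kb, Slc12a4 averaged 22.2 ± 0.544 CPM in deficient cells (SD, n = 4), followed by Slc12a7 at 10.9, Slc12a9 at 5.48, Slc12a2 at 4.48 and Slc12a5 at 0.570 CPM. In wildtype cells Slc12a4 averaged 19.1 and Slc12a2 17.6 CPM per kb, and these were the only neighbours in that order whose libraries overlapped. Slc12a7 at 10.4, Slc12a9 at 5.69 and Slc12a5 at 0.742 CPM per kb followed. Slc12a2 thus ranked just after Slc12a4 in wildtype cells, and below Slc12a7 and Slc12a9 in deficient cells.

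The first experiment gave another order for Slc12a2. Per kb, Slc12a4 averaged 27.0 CPM in corpses with cytochalasin D, 21.7 in corpses, 26.4 in cytochalasin D and 23.8 in control. Slc12a7 came second in all 4 groups, at 15.7, 13.9, 15.5 and 15.3 CPM per kb in the same order of groups. Slc12a9 and Slc12a2 overlapped in corpses, at 9.17 and 8.60 CPM per kb, and in control, at 8.29 and 9.03. With cytochalasin D present Slc12a2 lay below Slc12a9 without overlap, at 7.15 against 9.01 CPM per kb in corpses with cytochalasin D and 5.63 against 9.41 in cytochalasin D alone. Slc12a5 was lowest throughout, between 0.935 and 1.26 CPM per kb. The experiments were normalised separately, so the wildtype and control levels are set side by side without a test.

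**Figure D1:**
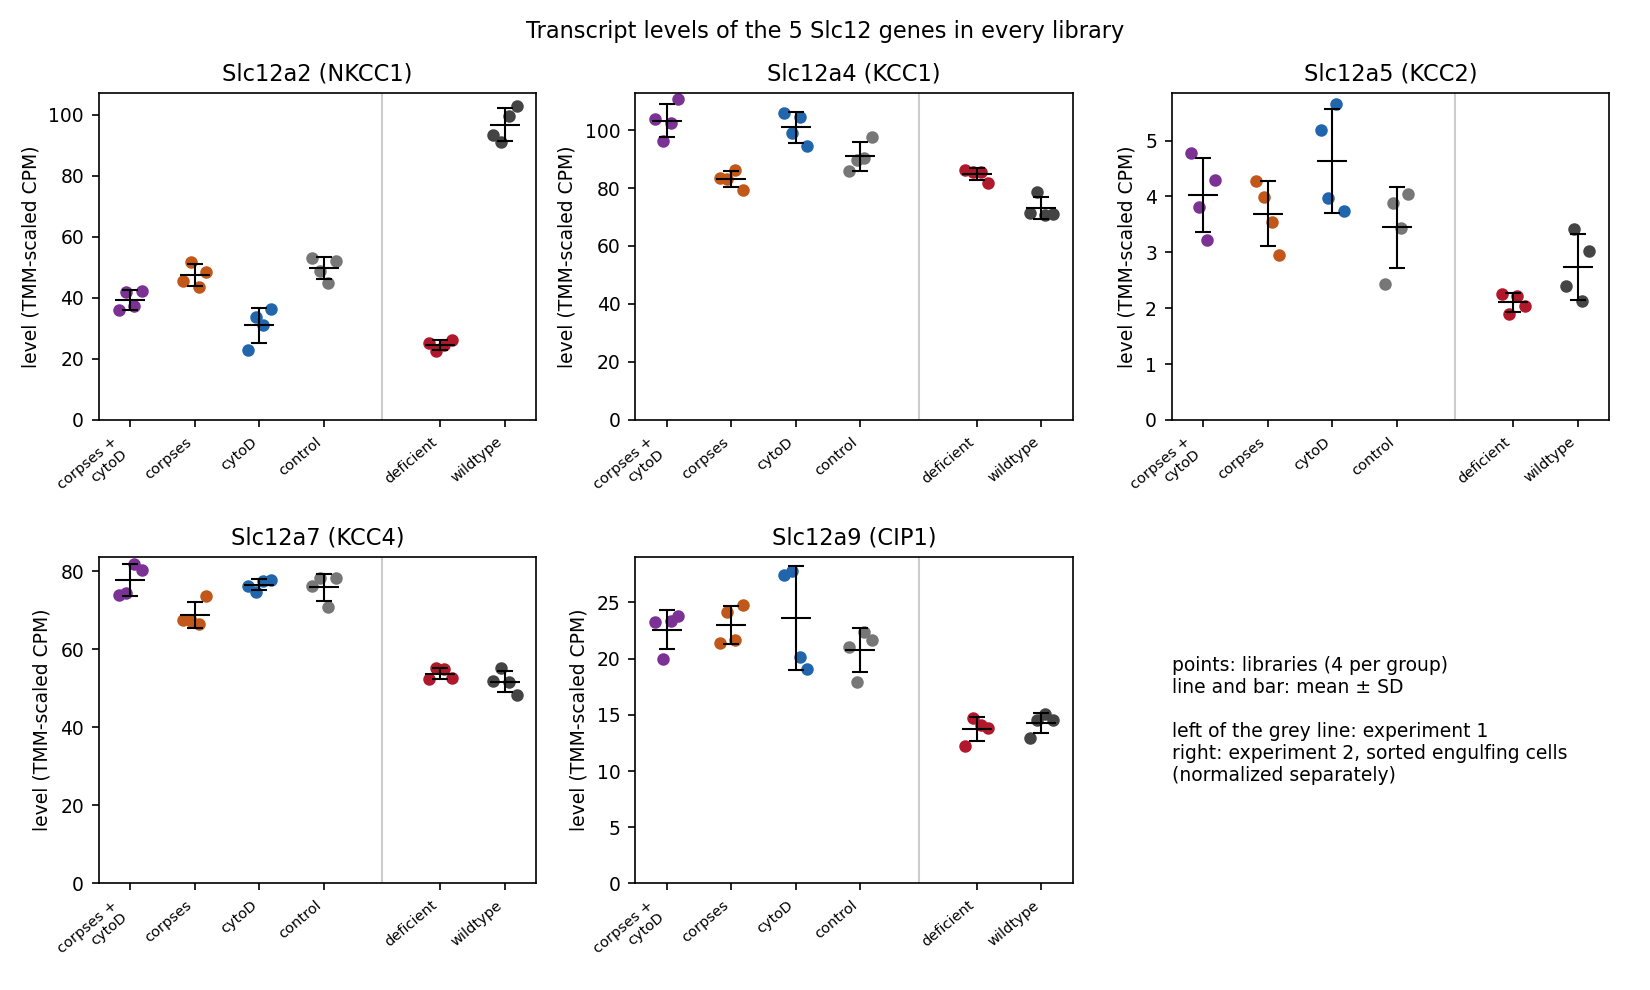
Level of each of the 5 members in CPM (vertical axes, linear, 1 panel per gene) in every library, as points, with the group mean ± SD as a line and bar (n = 4); groups run from corpses with cytochalasin D to control, then deficient and wildtype. Slc12a2 separates the genotypes, at 22.4 to 26.2 CPM in deficient and 91.2 to 103 CPM in wildtype libraries, while Slc12a7 and Slc12a9 overlap between genotypes.

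Deficient cells were set against wildtype cells to ask whether loss of Slc12a2 came with a change in the other cotransporters. Loss of the gene and other differences between the lines cannot be told apart in this design. Both groups held corpses and were sorted, so a difference present before corpses and a response to uptake cannot be told apart either. Slc12a2 fell and Slc12a4 rose slightly, and Slc12a5, Slc12a7 and Slc12a9 did not pass the test. Of all 13050 genes tested, 42.5% were called changed, against 2 of the 5 members, 1 of which is the targeted gene. The median log2 fold change of the 5 members was −0.05, against −0.0018 over all genes tested.

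Slc12a2, the targeted gene, measured 25.4, 22.4, 24.7 and 26.2 CPM in deficient libraries, against 93.4, 91.2, 99.5 and 103 CPM in wildtype libraries. Every deficient library lay below every wildtype library, which held for 20.4% of tested genes. Expression was 3.93-fold lower, a log2 fold change of −1.97 (SE 0.06), with a Benjamini-Hochberg adjusted p of 1.14e-12 by edgeR's quasi-likelihood test. Only 1.49% of tested genes had a larger change in either direction. The remaining 589 to 688 fragments per deficient library show that transcript from the locus was still counted, and gene-level counts do not tell which exons they cover. In bulk RNA, fewer cells carrying a transcript and less RNA per cell cannot be told apart.

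Slc12a4, the KCC1 gene, measured 86.1, 85.6, 85.4 and 81.6 CPM in deficient libraries, against 71.5, 78.7, 70.9 and 70.9 CPM in wildtype libraries. All 4 deficient libraries lay above all 4 wildtype libraries, the nearest pair being 81.6 and 78.7 CPM. Of all tested genes, 19.3% lay wholly above in the same way. The difference was 1.16-fold, with a log2 fold change of 0.21 (SE 0.05) and an adjusted p of 0.00193 by edgeR. It was modest beside the rest of the transcriptome, since 41.3% of tested genes changed by more. Lcat, whose exons overlap, was at 11.1 ± 1.34 CPM in deficient and 10.4 ± 0.639 CPM in wildtype cells (edgeR adjusted p = 0.417).

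Slc12a7, the KCC4 gene, measured 52.5, 55.2, 54.9 and 52.7 CPM in deficient libraries, against 51.8, 55.1, 51.7 and 48.4 CPM in wildtype libraries. The groups overlapped, and the 95% interval of the ratio, unadjusted for multiple tests, ran from 0.966 to 1.12. Slc12a9 ranged from 12.3 to 14.7 CPM in deficient and from 12.9 to 15.1 CPM in wildtype libraries, with an interval of 0.859 to 1.08. Neither interval reached the 1.16-fold increase estimated for Slc12a4, whose own interval ran from 1.08 to 1.25.

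Slc12a5, the KCC2 gene, was counted at 46 to 62 fragments in deficient and 57 to 79 fragments in wildtype libraries. Its levels were 2.25, 1.90, 2.23 and 2.04 CPM in deficient libraries and 2.39, 3.41, 2.13 and 3.02 CPM in wildtype libraries, and the groups overlapped at the low end of the wildtype range. The log2 fold change of −0.37 (SE 0.16) missed the threshold with an edgeR adjusted p of 0.0812. Without wildtype library 3 the value was −0.48 with an adjusted p of 0.0331, so the call turned on that library.

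Of the other family names, Slc12a1, Slc12a3 and Slc12a8 had at most 2, 0 and 13 fragments in any library and were not tested.

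The rise of Slc12a4 was small against the fall of Slc12a2 when both were put per kb. The deficient mean minus the wildtype mean was −13.1 CPM per kb for Slc12a2 and 3.06 for Slc12a4. For the 3 members that did not pass the test it was 0.420 (Slc12a7), −0.211 (Slc12a9) and −0.172 CPM per kb (Slc12a5). The sum over the 5 members was 43.6 ± 0.642 CPM per kb in deficient and 53.5 ± 1.25 in wildtype cells. Slc12a2 made up 10.3% of that sum in deficient and 32.8% in wildtype cells. The ratio of Slc12a2 to Slc12a4 per kb was 0.202 ± 0.0166 in deficient libraries and 0.923 ± 0.0897 in wildtype libraries, without overlap. These ratios follow from the gene-by-gene values above and add no separate test.

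**Figure D2:**
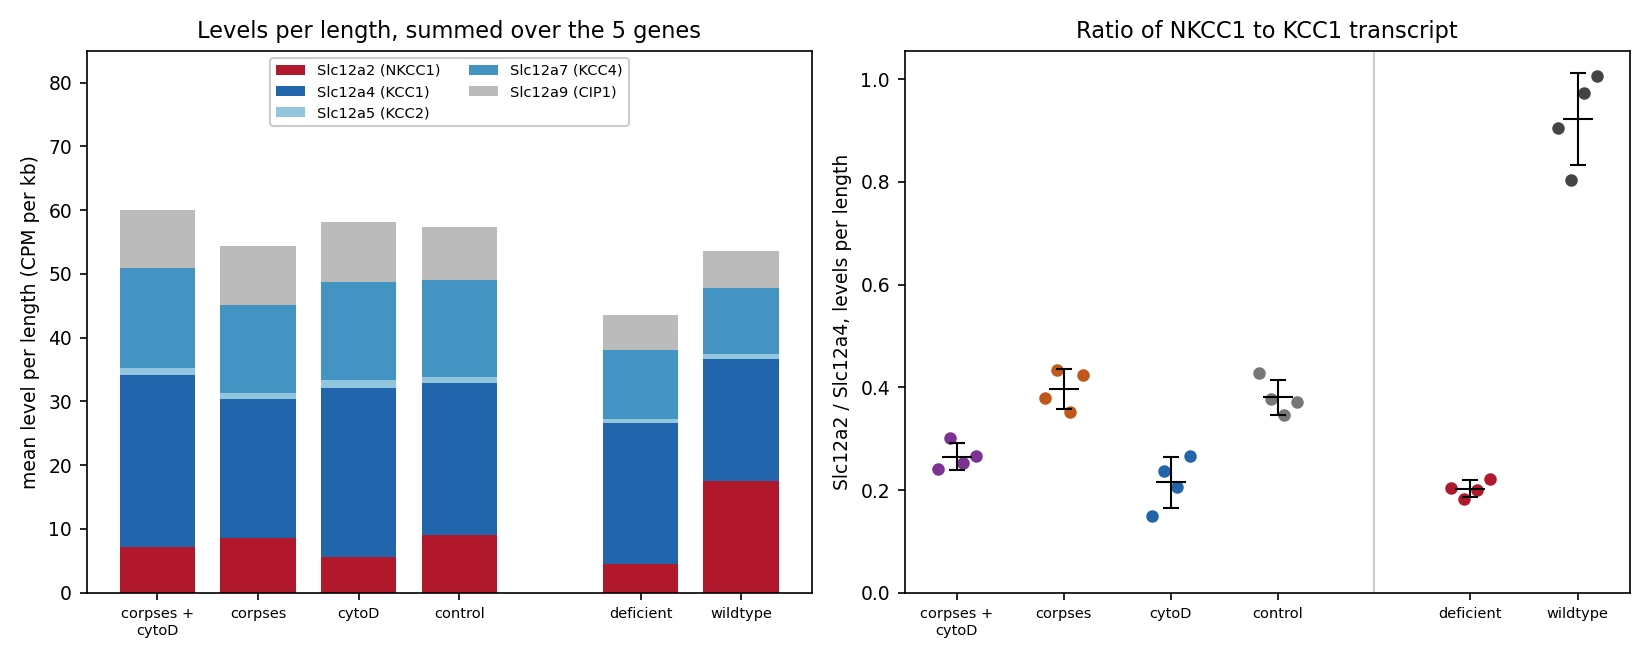
Left, stacked bars of the mean CPM per kb of the 5 members in each group. Right, the ratio of Slc12a2 to Slc12a4, both per kb, in every library (points) with the group mean ± SD (line and bar, n = 4); the ratio averages 0.202 in deficient and 0.923 in wildtype libraries, and 0.215 in cytochalasin D against 0.380 in control.

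Genes around the family were described from lists of related transporters and kinases, read against the 42.5% of all tested genes called in this comparison. Among regulators of the WNK pathway, 7 of 10 were tested, with 2 higher and 1 lower (median log2 fold change −0.03), a share close to that over all genes. Cab39l, a scaffold protein that activates SPAK and OSR1, was higher by a log2 fold change of 0.96 (edgeR adjusted p = 2.51e-08), and Stk39 by 0.15, whereas the related scaffold Cab39 was lower, at −0.12. Oxsr1 was at −0.03 with an adjusted p of 0.564.

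Other routes for chloride had 23 of 49 genes tested, with 4 higher and 6 lower (median −0.15), again close to the share over all genes. The values of single genes are therefore given as description. Lrrc8a and Lrrc8c, subunits of the volume-regulated anion channel, changed by −0.42 and −0.51 (edgeR adjusted p = 0.000232 and 2.17e-06), and Clcn3, a chloride-proton exchanger, by 0.21. The subunits Lrrc8d and Lrrc8e, at 0.04 and −0.03, were not called (edgeR adjusted p = 0.605 and 0.816). Among 5 of 28 sodium and potassium routes tested, 3 were higher and 0 lower (median 0.23). Slc9a5, a sodium-proton exchanger, was at 0.43, Slc4a7, a sodium-bicarbonate cotransporter, at 0.28 and Kcnn4, a calcium-activated potassium channel, at 0.23, as log2 fold changes. Of 9 tested genes of the response to tonicity and cell volume, 2 were higher and 5 lower (median −0.14). The urea transporter Slc14a2 had 3 to 12 fragments in deficient and 1310 to 1745 in wildtype libraries, at 0.281 ± 0.126 and 59.8 ± 5.74 CPM (SD, n = 4 each). Its fitted log2 fold change was −7.68 (edgeR adjusted p = 1.20e-14). Sgk1, a volume-responsive kinase, was at −1.85, the urea transporter Slc14a1 at −1.24 and the water channel Aqp1 at 0.89, each past the threshold.

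Cell type markers also differed between the genotypes. Of the 7 fibroblast markers tested, 1 was higher and 6 were lower in deficient cells, with the sum over 11 markers at 4002.6 to 4312.4 CPM in deficient and 4163.1 to 4461.4 CPM in wildtype libraries. Most of that sum was Vim, the marker that was higher, which averaged 3402 CPM in deficient and 2962 CPM in wildtype cells. Fn1, among the lower, averaged 654 and 1248 CPM. The sum over 15 T cell markers was 23.2 to 28.0 CPM in deficient and 29.5 to 32.2 CPM in wildtype libraries, with 7 markers at 0 in all libraries of each genotype, Cd3e and Zap70 among them. Most of the sum was Tcf7, which averaged 18.5 CPM in deficient and 16.1 CPM in wildtype cells, and Lat, at 4.66 and 10.8 CPM. Control cells without corpses also held Tcf7 and Lat, at 23.7 and 11.0 CPM. Lck averaged 0.0495 CPM in deficient and 0.0585 CPM in wildtype cells. The part of the markers in the results was not tested.

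**Figure D3:**
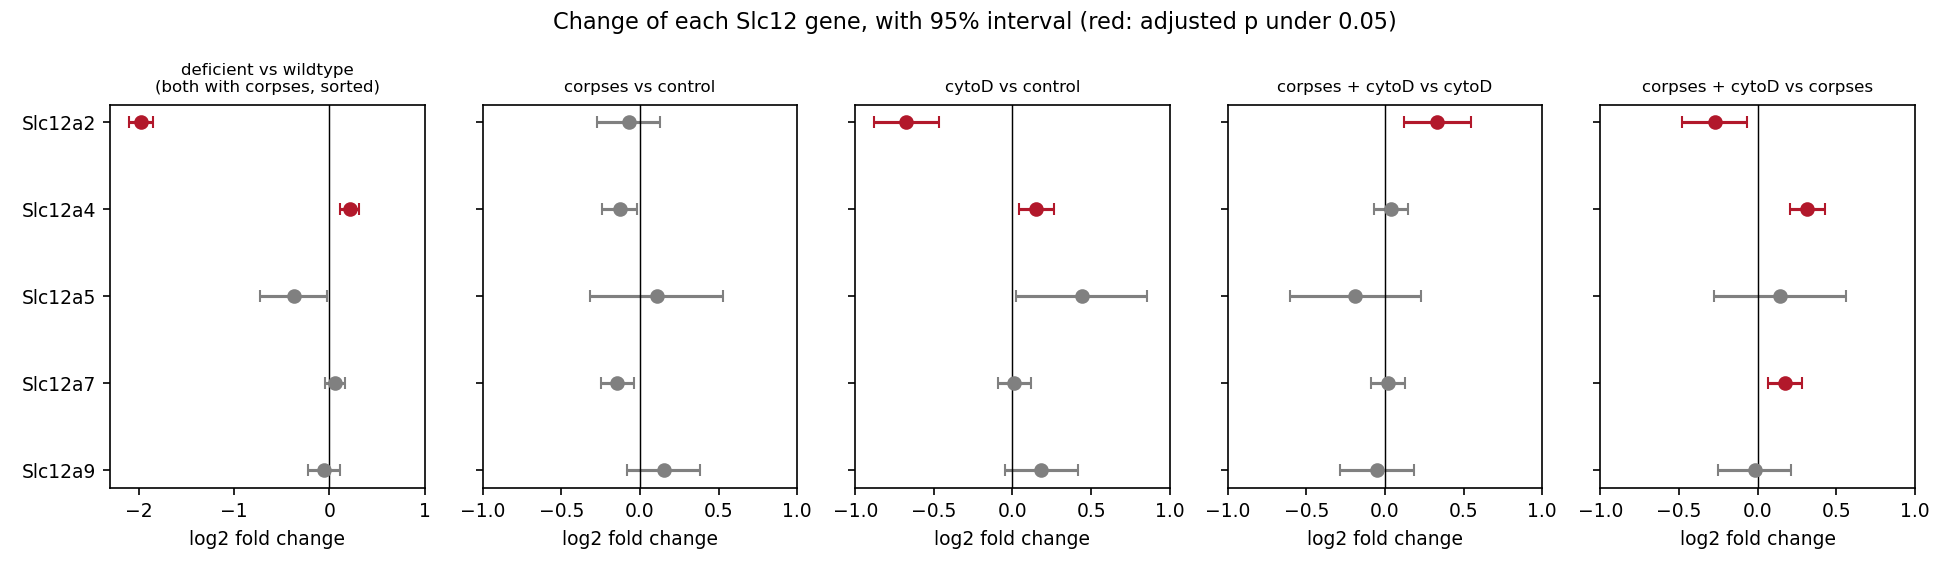
Log2 fold change of each of the 5 members (points) with its unadjusted 95% interval (lines) in the 5 pairwise comparisons, with called genes in red; the horizontal axis runs wider in the first panel, where Slc12a2 lies at −1.97. Slc12a2 lies below 0 in the comparisons of cytochalasin D with control and of corpses with and without the drug.

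Cytochalasin D alone was compared with control to see what the actin drug did without corpses. Slc12a2 fell and Slc12a4 rose slightly, so 2 of 5 members were called, against 26.3% of all 13106 genes tested. The median log2 fold change of the members was 0.15, against 0.0088 over all genes.

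Slc12a2 measured 22.9, 33.9, 31.0 and 36.2 CPM with cytochalasin D, against 53.0, 48.8, 44.9 and 52.2 CPM in control. All 4 treated libraries lay below all 4 control libraries, and the lowest was library 1, which stood apart on the third component. Of all tested genes, 11.4% lay wholly below in the same way. Slc12a2 was 1.60-fold lower, a log2 fold change of −0.68 (SE 0.10) with an edgeR adjusted p of 1.53e-05. Without the 3 libraries that stood apart it was −0.54 with an adjusted p of 6.06e-05.

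Slc12a4 measured 106, 98.8, 104.4 and 94.5 CPM with cytochalasin D, against 86.0, 89.8, 90.3 and 97.7 CPM in control. The groups overlapped, because the highest control library lay above the lowest treated one. Slc12a4 differed by 0.15 on the log2 scale (SE 0.05) with an edgeR adjusted p of 0.0351. That call was lost with scaling by library size alone (0.11, adjusted p = 0.129), in a fit of the 8 compared libraries (0.15, adjusted p = 0.0636), without control library 1, 2 or 3 (0.13, 0.15 and 0.15, adjusted p = 0.123, 0.0748 and 0.0736), and without cytochalasin D library 1, 2 or 3 (0.12, 0.15 and 0.13, adjusted p = 0.114, 0.0524 and 0.103).

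Slc12a7 averaged 76.6 CPM with cytochalasin D and 76.0 CPM in control, and the interval of the ratio ran from 0.936 to 1.09. Slc12a5 was at 5.20, 3.97, 5.66 and 3.74 CPM with the drug and at 2.44, 3.88, 3.43 and 4.05 CPM in control, with a log2 fold change of 0.44 that missed the threshold (edgeR adjusted p = 0.118). Slc12a9 split within the treated group, at 27.4 and 27.8 CPM in libraries 1 and 2 and at 20.1 and 19.1 CPM in libraries 3 and 4, against 20.8 ± 1.96 CPM in control (SD, n = 4).

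In the surrounding lists, read against the 26.3% called over all genes, 6 of 22 tested chloride genes were higher and 1 was lower (median log2 fold change 0.05), and 1 of 5 sodium and potassium genes passed in each direction (median −0.09). With the libraries that stood apart left out, 7 chloride genes were higher and 1 lower, and 1 sodium or potassium gene was higher and 0 lower. Ttyh2, a tweety family protein, was at 1.26 and Clcn7, a lysosomal chloride-proton exchanger, at 0.65. Of the tonicity genes 1 of 9 was higher, Sgk1 at 2.11, and 5 were lower (3 without the libraries that stood apart), including Aqp1 at −1.06 and the taurine transporter Slc6a6 at −0.59. Of 7 WNK regulators tested, Oxsr1 was the 1 called, at −0.23 (list median −0.05). These values are log2 fold changes from edgeR, each with an adjusted p under 0.05. The fibroblast marker sum was 4133.1 to 4787.6 CPM with cytochalasin D and 5228.1 to 5765.7 CPM in control. Most of the sum was Vim, which averaged 3278 and 4334 CPM. The part of these markers in the results was not tested.

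**Figure D4:**
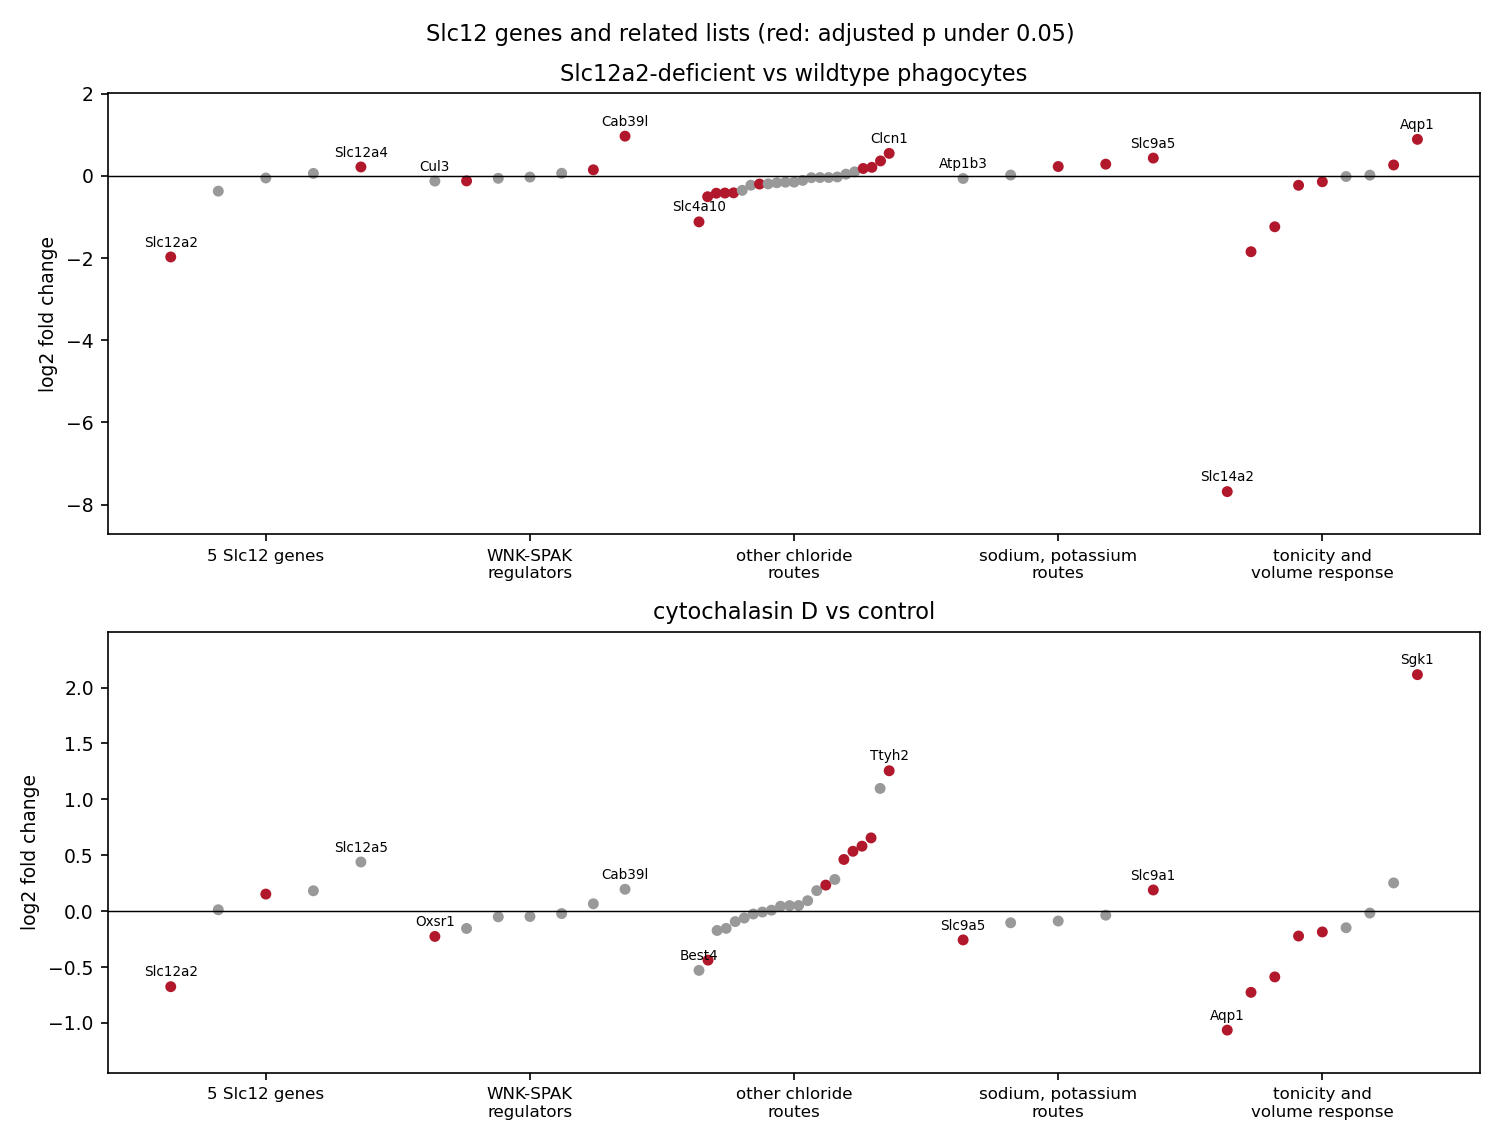
Log2 fold change (vertical axis) of each tested gene, as a point, in 5 lists (along the horizontal axis), for deficient against wildtype cells and for cytochalasin D against control; called genes are in red and the extremes are named. In the first panel the urea transporter Slc14a2 is lowest, at −7.68, Slc12a2 lies at −1.97 and Sgk1 at −1.85, and in the second Sgk1 lies at 2.11.

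Corpses alone were compared with control to ask what co-culture did. No member was called by edgeR, against 13.7% of genes tested, and none by DESeq2 or limma-voom. At an unadjusted p under 0.05, Slc12a4 and Slc12a7 stood out, with unadjusted p of 0.023 and 0.0114. Slc12a7 measured 67.6, 67.2, 66.6 and 73.8 CPM with corpses, against 76.3, 78.4, 71.0 and 78.3 CPM in control. Corpse libraries 1, 2 and 3 lay below every control library, and library 4 overlapped them. Its log2 fold change of −0.14 (SE 0.05) had an edgeR adjusted p of 0.0701, and the gene was called without control library 3 (−0.17, adjusted p = 0.0413) or corpse library 4 (−0.18, adjusted p = 0.0361).

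Slc12a4 averaged 83.0 ± 2.79 CPM with corpses and 90.9 ± 4.92 CPM in control, a log2 fold change of −0.13 with an edgeR adjusted p of 0.111. Lcat, with which it shares exon sequence, was lower, at 8.45 ± 0.699 CPM with corpses and 11.5 ± 0.756 CPM in control (log2 fold change −0.44, edgeR adjusted p = 0.0167). Slc12a2 measured 45.5, 51.9, 43.7 and 48.5 CPM with corpses, against 53.0, 48.8, 44.9 and 52.2 CPM in control. Its groups overlapped across most of their range, and the ratio's interval ran from 0.829 to 1.09. Slc12a5 and Slc12a9 were at log2 fold changes of 0.11 and 0.15, with edgeR adjusted p of 0.786 and 0.411. Across genes, the log2 fold change in this comparison correlated with gene length (Spearman rho −0.256 over 13106 genes, which are not independent). The T cell marker sum was 42.2 to 45.1 CPM with corpses and 34.8 to 37.2 CPM in control, and its part in the results was not tested.

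Around the family, corpses came with calls for single genes of 3 lists, where 13.7% of all genes were called. Of 9 tonicity genes tested, 3 were higher and 2 lower: Sgk1 was at a log2 fold change of 1.45, Slc14a1 at 1.27 and Aqp1 at 0.55, while Nfat5, the transcription factor that responds to hypertonicity, was at −0.36 and the amino acid transporter Slc38a2 at −0.25. Of 22 chloride genes 1 was higher, Ano8 at 0.35, and 1 lower, Lrrc8d at −0.19. Of 7 WNK regulators 1 was lower, Oxsr1 at −0.21, and none of 5 sodium and potassium genes was called by edgeR.

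Under cytochalasin D, corpses were set against the drug alone, so that corpses were present while the drug blocked engulfment. Slc12a2 measured 36.1, 42.0, 37.2 and 42.4 CPM with corpses and drug, against 22.9, 33.9, 31.0 and 36.2 CPM with the drug alone. The groups overlapped only between 36.1 and 36.2 CPM. With a log2 fold change of 0.33 (SE 0.10) and an edgeR adjusted p of 0.045, 1 of 5 members was called, against 8.61% of genes tested. The call was lost without cytochalasin D library 1 (0.22, adjusted p = 0.144), 2 (0.38, 0.0526) or 3 (0.33, 0.093), without library 2 (0.30, 0.117), 3 (0.36, 0.0691) or 4 (0.30, 0.135) of corpses with cytochalasin D, and without the 3 libraries that stood apart (0.18, 0.302). It was also lost with limma-voom (0.33, 0.0639), with library size alone (0.32, 0.0592) and in a fit of the 8 compared libraries (0.34, 0.102). The other 4 members had log2 fold changes between −0.19 and 0.04, and none was called. The T cell marker sum was 41.2 to 46.4 CPM with corpses and drug and 30.8 to 37.1 CPM with the drug alone, and its part was not tested.

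With corpses present, cells with the drug were set against cells without it. Slc12a4 and Slc12a7 rose and Slc12a2 fell, so 3 of 5 members were called, against 32.5% of genes tested. Slc12a4 measured 103.8, 96.3, 102.5 and 110.5 CPM with corpses and drug, against 83.4, 82.95, 86.3 and 79.4 CPM with corpses alone. The groups did not overlap, the log2 fold change was 0.32 (SE 0.05), and edgeR's adjusted p was 6.09e-05. In this comparison the groups did not overlap for 32.1% of all tested genes, with 16.4% higher and 15.8% lower. Lcat, which overlaps Slc12a4, was also higher, at 11.9 ± 1.40 CPM with corpses and drug and 8.45 ± 0.699 CPM with corpses (log2 fold change 0.48, edgeR adjusted p = 0.00392), and the part of shared fragments was not tested.

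Slc12a7 measured 74.1, 74.3, 82.0 and 80.4 CPM with corpses and drug, and the corpse libraries all lay lower, at 66.6 to 73.8 CPM. The log2 fold change of 0.18 (SE 0.05, edgeR adjusted p = 0.012) was lost without library 3 of corpses with cytochalasin D (0.14, adjusted p = 0.0634), when the trend with gene length was removed (0.13, adjusted p = 0.0573) and with library size alone (0.14, adjusted p = 0.0505). Slc12a2 was at 36.1 to 42.4 CPM with corpses and drug, below the 43.7 to 51.9 CPM with corpses. Slc12a2 thus differed by −0.27 on the log2 scale (SE 0.10) with an edgeR adjusted p of 0.0386. That call was lost without corpse library 2 (−0.23, 0.114) or 4 (−0.27, 0.0813), or without library 1 (−0.23, 0.109) or 3 (−0.25, 0.104) of corpses with cytochalasin D. The fibroblast marker sum was 4197.8 to 4667.9 CPM with corpses and drug and 6411.6 to 6920.5 CPM with corpses. Most of the sum was Vim, which averaged 3247 and 5420 CPM, and the part of these markers was not tested.

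The difference between the 2 corpse effects, with and without cytochalasin D, was tested as an interaction. No member was called by edgeR, against 4.56% of genes tested, and none by DESeq2 or limma-voom. Slc12a2 had the lowest adjusted p, with a difference of 0.40 on the log2 scale (SE 0.14, edgeR adjusted p = 0.098), and without cytochalasin D library 4 it was 0.49 with an adjusted p of 0.0253. It also passed when no filter on low counts was used (0.41, adjusted p = 0.0418), and was at 0.23 with an adjusted p of 0.417 without the 3 libraries that stood apart. At an unadjusted p under 0.05, Slc12a4 and Slc12a7 also stood out, at 0.17 and 0.16. The comparisons in the first experiment share libraries, so their values are given side by side only.

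The lists around the family were also counted in these 3 comparisons by edgeR, where the shares called over all genes were the 8.61%, 32.5% and 4.56% given above. For corpses and drug against the drug alone, 3 of 22 chloride genes were lower, Ttyh2 at −0.44 and Clcn7 at −0.23 among them, 2 of 9 tonicity genes were higher (Slc14a1 at 0.58, Sgk1 at 0.42), Slc4a7 was at 0.28, and no WNK regulator was called. Without the libraries that stood apart, 1 chloride gene and 0 sodium and potassium genes were called there. For corpses and drug against corpses, 6 chloride genes were higher and 3 lower, and 3 tonicity genes passed in each direction, with Ttyh2 at 0.92, Sgk1 at 1.09 and Aqp1 at −1.69. With the libraries that stood apart left out, 6 chloride genes were higher and 4 lower, and 2 tonicity genes were higher and 3 lower. Of the WNK regulators 2 were higher and 2 lower, 1 each without those libraries, with Cab39 at 0.23 and Wnk4 at −0.47, and of the sodium and potassium genes 1 was higher and 2 were lower. In the interaction 2 tonicity genes were higher and 3 lower, Sgk1 at −1.02 among them, against 0 and 2 without those libraries. Oxsr1 was at 0.22 and Slc4a7 at 0.45 in the interaction, both no longer called without those libraries, and no chloride gene was called.

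Genes whose levels followed a member most closely were found by the root mean square difference of centred log2 CPM over the 16 libraries of the first experiment, among 8920 genes. For Slc12a2 these were Ugcg, a glucosylceramide synthase, at 0.113, Mybl1 at 0.137 and the nuclear exporter Xpo1 at 0.140, where the median over all candidates was 0.443. Ugcg averaged 45.6 CPM in corpses with cytochalasin D, 57.3 in corpses, 35.3 in cytochalasin D and 55.9 in control. For Slc12a4 they were Kiaa0319l at 0.0533, the late endosome GTPase Rab7a at 0.0636 and the lipid kinase Pi4ka at 0.0676 (median 0.219). Among the 3 nearest to Slc12a7 were Ppp6r3 at 0.0510 and the metalloprotease Adam9 at 0.0527 (median 0.190). Slc12a7 itself moved little with cytochalasin D alone, at a log2 fold change of 0.012, and so did Ppp6r3 at 0.015 and Adam9 at −0.035. All these genes were picked for the smallest distance, so lying below the median is no test of a link.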

How the data were processed

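The authors deposited raw fragment counts per gene name, made with featureCounts 1.5.0 over exons for fragments with both ends aligned and without a strand option, per the file headers. Gene lengths used for CPM per kb are those the authors deposited. STAR, FastQC and DESeq2 are named in the submitters' processing notes, and the genome build is not given in the sources used here. Reads were 75 bp, paired-end, per the labels. An unnamed entry was left out (mean 0.0361% of counts in control, 1.42% in deficient and 1.34% in wildtype libraries).

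Each experiment was fitted separately with edgeR 4.0.16 in R 4.3.3 (TMM factors, minimum count 10, minimum total 15, quasi-likelihood F test on group), and adjusted p under 0.05 was called. Standard errors were derived from the F statistic. Replicates are biological per the series text. DESeq2 1.42.0 and limma 3.58.1 (voom) were alternatives, with other scalings, filters, blocks and single libraries left out. Removing the libraries that stood apart and scaling by library size only were chosen after seeing the data. The members, lists and the rule for named genes (per list, comparison and direction, up to 3 called genes of at least 4 CPM with the largest changes, and the 3 genes nearest in pattern to each member called in the first experiment) were chosen with earlier results of these data known. Lcat, the other named list genes and the comparisons' examples beyond that rule were picked after their values were seen. Wnk1 was not analysed here, and some items are not reported. Counting floors cover counting error only.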

Additional observations from a re-analysis of the deposited data

Results flagged for a closer look

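In 4 of 30 member-by-group sets of 4 libraries, 1 library lay far from the other 3 relative to the group's range, above Dixon's value of 0.829. By chance about 1 in 20 such sets would. For Slc12a4, the lowest deficient library was number 4 at 81.6 CPM, with a gap of 0.853 of the range, and the highest wildtype library was number 2 at 78.7 CPM, with a gap of 0.914. Both lie on the sides that face each other, and the difference between genotypes kept an adjusted p of at most 0.00994 by edgeR with any 1 library left out. For Slc12a7, corpse library 4 was highest at 73.8 CPM (0.859). For Slc12a9, library 2 of corpses with cytochalasin D was lowest at 19.997 CPM (0.874).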

How the results depend on the processing

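Across 595 alternative values for the 5 members, 553 kept direction and side of the threshold. For deficient against wildtype cells, no alternative other than leaving out a library changed a call. The values below are log2 fold changes that changed side or sign. Scaling by library size alone gave, for cytochalasin D against control, Slc12a7 −0.034 and Slc12a4 0.11, for corpses with against without the drug, Slc12a7 0.14, and for the drug with against without corpses, Slc12a2 0.32. Removing the length trend gave Slc12a7 0.13 for corpses with against without the drug. Fits on the 8 compared libraries gave Slc12a4 0.15 for cytochalasin D against control. For the drug with against without corpses, such fits gave Slc12a2 0.34, and limma-voom gave Slc12a2 0.33. Without the 3 libraries that stood apart, the drug with against without corpses gave Slc12a2 0.18, Slc12a9 0.0079 and 662 genes called, and the interaction 120 genes. The interaction called 950 genes with DESeq2 and 928 without a filter, where Slc12a2 was 0.41. The causes were not tested. With single libraries left out, values ranged as follows. For corpses with against without the drug, Slc12a2 was −0.32 to −0.23, Slc12a7 0.14 to 0.21 and Slc12a9 −0.055 to 0.020. For the drug with against without corpses, Slc12a2 was 0.22 to 0.42, Slc12a7 −0.0050 to 0.049 and Slc12a9 −0.14 to 0.042. For corpses against control, genes called numbered 1103 to 1700, Slc12a5 was −0.044 to 0.20 and Slc12a7 −0.18 to −0.13. For cytochalasin D against control, Slc12a4 was 0.12 to 0.19 and Slc12a7 −0.019 to 0.028. The interaction called 251 to 1645 genes, with Slc12a2 at 0.29 to 0.49. For deficient against wildtype cells, Slc12a5 was −0.48 to −0.25.

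The replicate numbers did not pair the samples (same-number correlations −0.0555 to 0.227, 1 of 16 libraries closest to its own number). With a replicate block the interaction of Slc12a2 was 0.42 (adjusted p = 0.0485), and no other member call changed. The deficient and wildtype groups share no label number, but their library numbers fall into a lower and an upper set, each holding both genotypes. Between genotypes, correlations were 0.0367 to 0.141 within a set and −0.152 to −0.0256 across sets (8 pairs each). What the sets stand for is not given in the labels. With a block for the set, no member call changed for deficient against wildtype cells.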
